A study of Mus musculus with 40 samples.

Results

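The 35 genes described here act in the G2 phase and in mitosis, and were followed through 4 sorted stages of B cell development in mouse bone marrow. The set was given as a list of gene symbols, and each symbol matched exactly 1 of the 21958 genes counted. The rule names genes by their known role and uses no measured value, but the list was chosen with earlier results of these data known. The data were 40 RNA libraries of 100 sorted cells each, from 10 mice. Mutant libraries came from 5 lethally irradiated CD45.1 hosts given bone marrow of CRISPR/Cas9-made P198A/P198A donors, homozygous for a missense change in the zinc transporter ZIP7. Wild-type (WT) libraries came from 5 hosts irradiated in the same way and given WT marrow. All hosts were analysed after 8 weeks, and donor cells were sorted as CD45.2+ CD45.1-. From each mouse, 4 fractions were sequenced, named by the letters of the Hardy scheme. FrB holds pro-B cells and was gated as B220+ CD43+ CD24+ BP1-. FrD holds small pre-B cells, gated as B220+ CD43- IgM- IgD-, and FrE immature B cells, gated as B220+ CD43- IgM+ IgD-. For FrC, which lies between FrB and FrD in that scheme, the sources used here give no gate. The 8 groups therefore held 5 libraries each. Strain, sex and age were not given in the sources used here, and it is not stated whether all animals of a genotype were given marrow of the same donor.

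Cells make the proteins of this set in bursts. Transcription of these genes is low in resting and G1 cells and rises towards mitosis, under the MuvB core complex with B-Myb and FoxM1, while the DREAM form of MuvB keeps the same genes off in cells that have left the cycle. DREAM and MuvB contact promoters at a short element named CHR, and the factor NF-Y binds nearby CCAAT boxes. In bone marrow, pro-B cells and large pre-B cells divide in response to IL-7 and the pre-B cell receptor, while small late pre-B cells and immature B cells are mostly resting. ZIP7 moves zinc out of the endoplasmic reticulum and Golgi into the cytosol.

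Promoters of 6 genes are shown, each of which passed a test described below. Mki67, Top2a and Ccnb2 passed in the genotype comparison in FrB. Cdc20 passed in the WT step from FrC to FrD, and Racgap1 and Plk1 in the WT step from FrD to FrE. Cdc20 was the only gene of the set to pass in its step, where 2.28% of all genes tested passed as lower. Ccnb2 was the only gene of the set to pass as lower in FrB, where 1.72% of all genes tested did. The results of Cdc20 and Ccnb2 were lost when some single mice were left out, and they are not read as results about the set. The sequences are RefSeq windows of GRCm38.p6, 300 bases long, from 250 bases before to 50 bases after the annotated start, read 5′ to 3′ on the strand of the gene. Capitals mark the CHR letters TTTGAA or TTCGAA and the CCAAT box, on either strand, so that TTCAAA and ATTGG are also marked. The windows lie at chr7:135716330-135716629 (minus strand, Mki67), chr11:99024140-99024439 (minus strand, Top2a), chr9:70421505-70421804 (minus strand, Ccnb2), chr4:118437294-118437593 (minus strand, Cdc20), chr15:99651607-99651906 (minus strand, Racgap1) and chr7:122159185-122159484 (plus strand, Plk1).
Mki67: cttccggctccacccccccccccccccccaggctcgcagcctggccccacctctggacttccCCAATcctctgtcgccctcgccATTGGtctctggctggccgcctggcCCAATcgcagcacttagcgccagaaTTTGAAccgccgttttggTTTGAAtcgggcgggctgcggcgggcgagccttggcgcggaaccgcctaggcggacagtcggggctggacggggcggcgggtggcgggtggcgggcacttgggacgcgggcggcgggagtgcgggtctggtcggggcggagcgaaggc
Top2a: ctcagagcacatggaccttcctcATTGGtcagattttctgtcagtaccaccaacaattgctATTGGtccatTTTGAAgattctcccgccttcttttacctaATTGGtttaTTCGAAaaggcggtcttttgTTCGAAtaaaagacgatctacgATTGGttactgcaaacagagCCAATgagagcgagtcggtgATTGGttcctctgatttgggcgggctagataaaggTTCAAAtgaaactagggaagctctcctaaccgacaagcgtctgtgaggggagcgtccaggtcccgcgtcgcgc
Ccnb2: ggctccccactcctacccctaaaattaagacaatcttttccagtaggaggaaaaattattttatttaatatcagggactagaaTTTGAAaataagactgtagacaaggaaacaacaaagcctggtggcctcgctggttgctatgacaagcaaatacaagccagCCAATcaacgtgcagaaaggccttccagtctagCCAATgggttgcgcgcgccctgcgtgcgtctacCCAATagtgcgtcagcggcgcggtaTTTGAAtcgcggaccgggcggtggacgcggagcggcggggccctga
Cdc20: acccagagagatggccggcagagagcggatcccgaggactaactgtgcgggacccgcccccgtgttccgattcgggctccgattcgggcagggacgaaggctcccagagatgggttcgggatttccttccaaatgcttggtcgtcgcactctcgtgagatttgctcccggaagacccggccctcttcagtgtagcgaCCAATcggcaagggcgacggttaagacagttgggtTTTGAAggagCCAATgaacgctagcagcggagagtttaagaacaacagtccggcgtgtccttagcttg
Racgap1: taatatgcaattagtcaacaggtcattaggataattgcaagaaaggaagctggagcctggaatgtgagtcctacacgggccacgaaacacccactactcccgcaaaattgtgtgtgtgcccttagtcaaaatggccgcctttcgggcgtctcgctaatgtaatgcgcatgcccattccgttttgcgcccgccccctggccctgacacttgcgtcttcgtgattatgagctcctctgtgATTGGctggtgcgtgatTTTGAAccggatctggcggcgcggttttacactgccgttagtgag
Plk1: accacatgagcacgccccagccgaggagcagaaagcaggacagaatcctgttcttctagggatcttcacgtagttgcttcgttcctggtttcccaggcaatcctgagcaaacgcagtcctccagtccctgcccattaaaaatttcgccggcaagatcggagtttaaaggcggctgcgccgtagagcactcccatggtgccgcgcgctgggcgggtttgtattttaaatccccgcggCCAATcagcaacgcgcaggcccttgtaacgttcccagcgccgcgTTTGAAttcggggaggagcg

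Windows were matched for 29 of the 35 genes, and Prc1 had 2 of them, which made 30. The genes with no matched window were Aurkb, Ccna2, Incenp, Kif20a, Spc24 and Tpx2. The CHR letters stood in 23 of the 30 windows (76.7%), against 19.2% of all 32851 windows in the table. A CCAAT box stood in 24 of the 30 (80.0%), against 37.4% of all windows. Both stood together in 21 of the 30 (70.0%), against 7.52% of all windows and 5.77% of the 12416 windows of genes tested in these data. In Ccnb2, which encodes cyclin B2, 3 CCAAT boxes began 87, 54 and 21 bases before the start, and a TTTGAA began at base 5 after it. In Cdc20, which encodes the activator of the anaphase-promoting complex, a TTTGAA began 18 bases before the start between 2 CCAAT boxes. The Racgap1 window had a CCAAT box on the opposite strand 12 bases before the start and a TTTGAA at base 6 after it. These are matches of letters, and binding was not measured.

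Endogenous counts per library ran from 42111 to 43372070. The lowest total was FrE of mutant mouse 9, where 1 count is worth 23.7 CPM (counts per 1000000 endogenous counts) and the 35 genes together had 201 counts. Among the 40 libraries, 10 are called low-complexity here because over 15% of their detected genes had only 1 to 9 counts. Among mutant libraries these were mice 4, 8, 9 and 10 in FrB, mice 5, 9 and 10 in FrC, and mouse 9 in FrE. Among WT libraries they were mouse 3 in FrD and mouse 7 in FrE. A missense allele does not remove its RNA, so expression of its gene does not check the genotype. The fractions were set against their defining markers: the summed level of 10 pro-B and pre-B markers had group medians of 6002, 5306, 1842 and 846 CPM in mutant FrB, FrC, FrD and FrE, against 5937, 4264, 1559 and 80.7 CPM in the same WT fractions. RNA of other cells was also present. The summed level of 20 granulocyte and monocyte markers, none of them at 0 in all libraries of a group, reached 59264 CPM in mutant FrB, 74564 CPM in mutant FrE and 75134 CPM in WT FrD (mouse 3). In pooled cells, fewer cells of a type and less RNA per cell cannot be told apart.

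Summed over the 35 genes, the level stood highest in FrC and lowest in FrE in both genotypes. In FrB, FrC, FrD and FrE the mutants averaged 9821 ± 2240, 13264 ± 2406, 9725 ± 2312 and 5818 ± 2276 CPM, against 12232 ± 2043, 16141 ± 856, 11254 ± 2477 and 2954 ± 2369 CPM in WT (SD, n = 5 each). The WT FrC libraries lay between 15412 and 17559 CPM, and none of the other 35 libraries reached that range. By mean CPM, 34 of the 35 genes peaked in FrC in WT, Ndc80 peaked in FrD, and all 35 were lowest in FrE. In the mutants the peak was spread over FrC (19 genes), FrD (9) and FrB (7), and 28 genes were lowest in FrE.

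**Figure D1:**
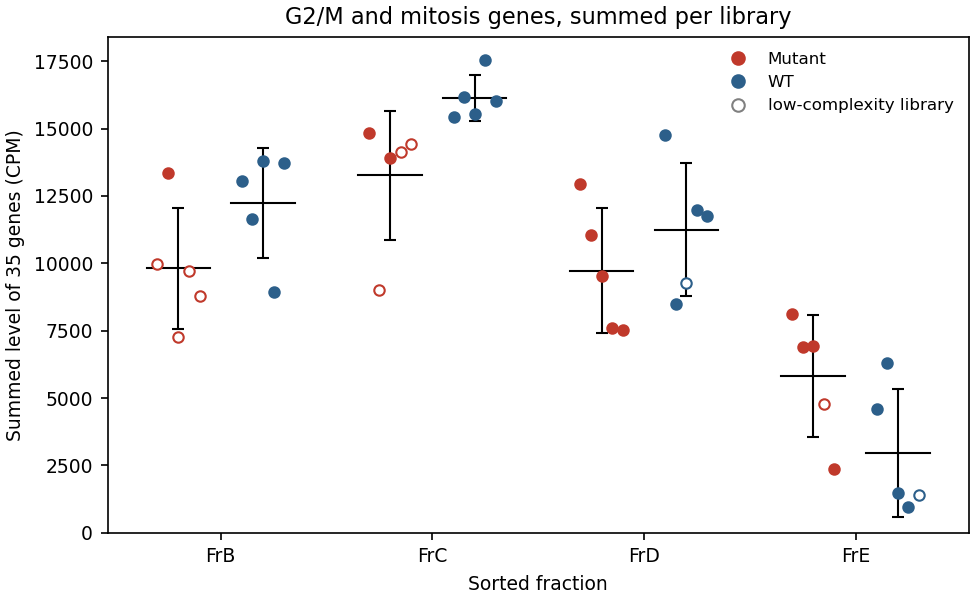
Summed CPM of the 35 genes in each library (y axis) by sorted fraction (x axis), mutant left of WT; bars are the mean and SD of 5 libraries and open points are low-complexity libraries. WT FrC lies between 15412 and 17559 CPM, and the FrE groups overlap.

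**Figure D2:**
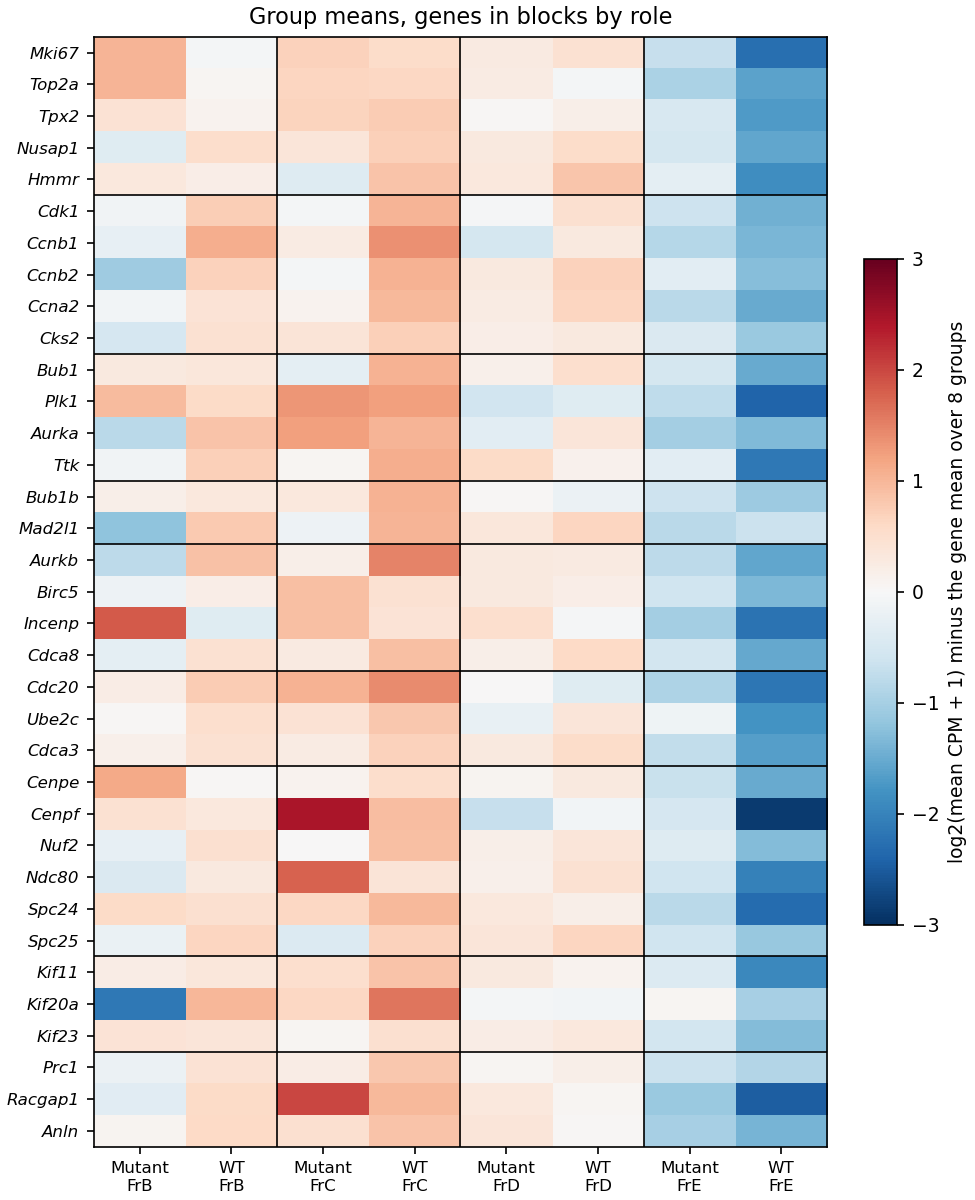
Each gene's group mean, as log2(mean CPM + 1) minus the gene's mean over the 8 groups (colour), with genes in blocks by role (rows) and groups along the x axis. WT FrC is the darkest red WT column and WT FrE the bluest column, while the deep red cells for Cenpf, Ndc80 and Racgap1 in mutant FrC come from 1 library.

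Levels can be compared between genes only per kilobase of exon. On that scale, in CPM per kilobase in WT FrC, the cyclin Ccnb2 was highest at 736 ± 81.6. It was followed by the ubiquitin-conjugating enzyme Ube2c at 550.0 ± 66.5, the CDK subunit Cks2 at 406 ± 55.7 and Cdc20 at 339.8 ± 109 (SD, n = 5). The neighbours Cks2 and Cdc20 lay within the spread of Cdc20. The cytokinesis scaffold Anln, which encodes anillin, was lowest at 9.65 ± 1.46. Mki67, which encodes the Ki-67 protein that coats mitotic chromosomes, stood at 75.5 ± 13.5, and Top2a, the topoisomerase that untangles sister chromatids, at 102 ± 22.1. The kinetochore genes ranged from Spc24 at 144 ± 9.30 to Cenpf at 17.8 ± 4.12.

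From FrD to FrE, the step from small pre-B to immature B cells, the genes fell in WT. All 35 had a fitted log2 fold change below 0, with a median of -1.98, while the median of all 11439 genes tested was 0.01. Lower calls numbered 19 of 35, against 2.43% of all genes tested, and none was called higher (2.88% of all genes were, and 5.32% were called in either direction). The test was the edgeR quasi-likelihood test with Benjamini-Hochberg adjustment over all genes tested, at an adjusted p under 0.05, as for every call here. By role, the calls covered 4 of 5 chromosome and proliferation markers, 4 of 6 kinetochore genes, 2 of 3 genes of the anaphase-promoting complex group, 3 of 4 chromosomal passenger complex genes, 2 of 3 motors, 2 of 5 cyclin and CDK genes, 1 of 4 mitotic kinases and 1 of 3 cytokinesis genes. In the spindle checkpoint group neither gene passed, Bub1b at -0.93 ± 0.50 and Mad2l1 at -1.26 ± 0.61 (log2 fold change ± SE). The checkpoint kinases Bub1 and Ttk, counted here with the mitotic kinases, did not pass either. DESeq2 called 26 of the 35 lower, Bub1 and Ttk among them, against 12.9% of all genes in either direction. It called 16 of the 19 edgeR calls, but not Incenp, Mki67 or Spc24.

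Racgap1 (ENSMUSG00000023015, chr15:99620496-99651656, GRCm38, minus strand) encodes a GTPase-activating protein of the central spindle. It had 6.05, 69.6, 20.4, 34.8 and 20.2 CPM in FrE of WT mice 1, 2, 3, 6 and 7, against 265, 177, 159.6, 172 and 135 CPM in FrD of the same mice. All FrE values lay below all FrD values, as they did for 13 of the 35 genes and for 1.77% of all genes tested. The log2 fold change was -2.66 ± 0.44 (SE, adjusted p = 0.000692, edgeR). Ndc80 (ENSMUSG00000024056, chr17:71496100-71526857, minus strand), the microtubule-binding subunit of the outer kinetochore, had 64.7, 59.8, 19.2, 28.6 and 7.32 CPM in FrE against 239, 213, 71.1, 229 and 278 CPM in FrD. The groups did not overlap, although FrD of mouse 3 came close to the highest FrE library. Its log2 fold change was -2.53 ± 0.44 (adjusted p = 0.00112, edgeR). Mki67 had 141, 169, 76.3, 43.1 and 111 CPM in FrE against 479, 366, 2043, 366 and 336 CPM in FrD, again with no overlap. Its log2 fold change was -2.94 ± 0.53 (adjusted p = 0.0017, edgeR), and -1.83 ± 0.31 without the low-complexity libraries, which include the FrD library of mouse 3 that stood at 2043 CPM.

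The motor Kif11, which pushes the spindle poles apart, had 78.3, 107, 22.6, 29.9 and 12.0 CPM in FrE of the WT mice against 286, 177, 162, 211 and 199.9 CPM in FrD, and fell by 2.1 ± 0.42 on the log2 scale. Cdc20 had 106, 42.4, 38.7, 61.9 and 10.3 CPM in FrE against 208, 183, 139.5, 131 and 259 CPM in FrD, and fell by 1.91 ± 0.42. FrE and FrD did not overlap in either gene. Plk1, the kinase that drives mitotic entry and centrosome maturation, fell by 2.11 ± 0.60, with an adjusted p of 0.0437 (edgeR) against 0.00385 for Kif11 and 0.00916 for Cdc20. Plk1 stood at 41.6, 42.5, 17.7, 4.54 and 1.05 CPM in FrE and at 166, 108, 59.6, 79.4 and 44.0 CPM in FrD. Other called genes were Ccna2 (-2.15 ± 0.41), which encodes cyclin A2, Cenpe (-1.89 ± 0.43), a kinetochore motor, Incenp (-2.34 ± 0.54), the scaffold of the chromosomal passenger complex, Spc24 (-2.57 ± 0.62), an Ndc80 complex subunit, and Cenpf (-2.89 ± 0.70), a large kinetochore protein.

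Several central mitotic genes did not pass in this step by edgeR, and their WT FrE libraries differed widely among themselves. Of those below, DESeq2 called Cdk1 and Aurkb lower but not Ccnb1. Ccnb1, which encodes cyclin B1, had 290.4, 312, 51.0, 10.5 and 1.57 CPM in FrE of WT mice 1, 2, 3, 6 and 7, against 685, 362, 262, 329 and 468 CPM in FrD. Its partner kinase Cdk1 had 183, 359, 36.1, 37.2 and 2.96 CPM in FrE against 623, 236, 421, 579.6 and 526 CPM in FrD. Aurkb, the kinase of the passenger complex, had 118, 165, 25.0, 29.7 and 2.44 CPM in FrE against 368, 279, 15.5, 301 and 264 CPM in FrD. In all of these genes, FrE of mice 1 and 2 was the highest of the WT FrE group, and these mice were among the 2 highest for 31 and 32 of the 35 genes. Within each mouse, the summed level in FrE was 0.311, 0.742, 0.161, 0.08 and 0.12 times that in FrD for WT mice 1, 2, 3, 6 and 7. The number of genes called lower was 6 without mouse 3 (1.58% of all genes), 9 without mouse 6 (1.02%), 11 without mouse 1 (1.1%), 14 without mouse 7 (2.03%) and 20 without mouse 2 (2.07%). FrE of WT mouse 7 was the lowest of its group for 20 of the 35 genes. It had 20705 CPM of erythroid and 3566 CPM of stromal markers, and 9643 CPM of the 7 B lineage markers. FrD of WT mouse 3 had 75134 CPM of granulocyte and monocyte and 33297 CPM of erythroid markers. The 8 plasma cell markers summed to 1350 to 1744 CPM in WT FrD and to 1186 to 23615 CPM in WT FrE. The part of these cells in this step was not tested.

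Scaled to spike-in counts instead of to the other genes, all 35 genes were still below 0 in FrE, with a median of -1.55 while the median of all genes moved to 0.29. Then 1 of the 35 was called lower (0.542% of all genes were), Mki67 at -2.93 ± 0.76 (adjusted p = 0.0337, edgeR). The counts of other lists here are from the fit without spike-in scaling, where 2.43% of all genes were called lower and 2.88% higher. Of 90 other mitosis genes, 21 were called lower and none higher, with a median of -1.64. Of 40 genes of G1/S and DNA replication, Pcna and Prim1 were called lower, and the median was -1.19. Of 18 tested CDK inhibitor and DREAM or MuvB genes, Rbbp4 and Cdkn2d were called lower.

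In the mutants the same step gave no calls. None of the 35 genes was called in FrE against FrD by edgeR (0% of all 11197 genes tested), 3 had an unadjusted p under 0.05, and DESeq2 also called none. The median log2 fold change of the 35 genes was -0.70, 33 of them were below 0, and the median of all genes was -0.06. The 3 genes of lowest p included Incenp at -1.53 ± 0.60 (adjusted p = 0.555, edgeR) and Ccna2 at -1.06 ± 0.48 (adjusted p = 0.765, edgeR). The summed level in FrE was 0.628, 0.623, 0.729, 0.629 and 0.314 times that in FrD for mutant mice 4, 5, 8, 9 and 10, so that it was lower in FrE in all 10 mice of both genotypes. Racgap1 was called lower when the low-complexity libraries were left out, at -1.38 ± 0.26 (adjusted p = 0.0167, edgeR; 0.451% of all genes were called lower). The 20 granulocyte and monocyte markers summed to 12031 to 23590 CPM in mutant FrD. In FrE of mutant mice 4, 5, 8, 9 and 10 they summed to 1615, 74564, 34.8, 22274.5 and 33.2 CPM. The part of these cells in the mutant step was not tested.

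**Figure D3:**
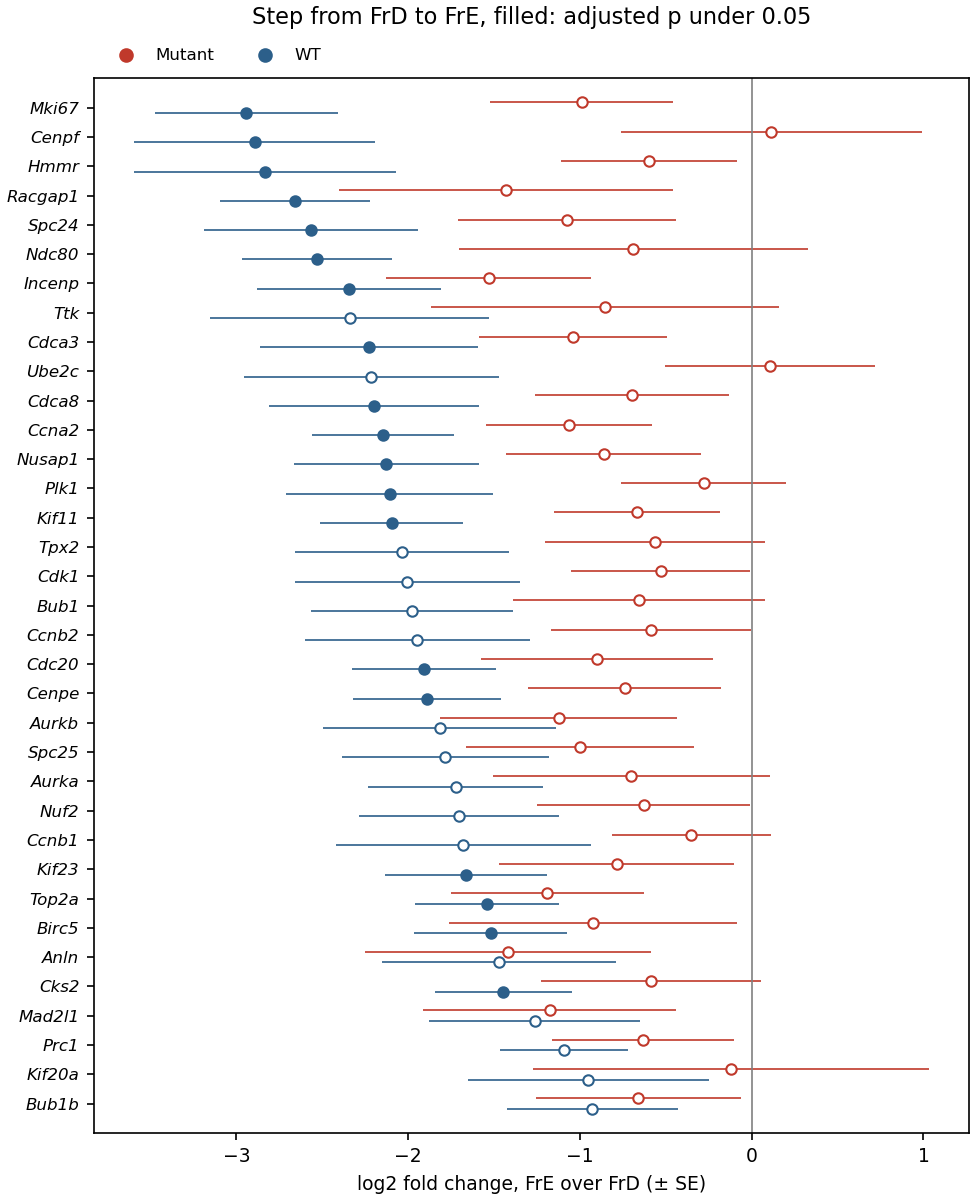
Log2 fold change from FrD to FrE for each gene (rows, ordered by the WT value), in mutants above WT, with bars of 1 SE; filled points have an adjusted p under 0.05. In WT 19 of 35 points are filled and all lie below 0, while no mutant point is filled.

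The difference between the genotypes in this step was tested directly, as mutant step minus WT step over all 40 libraries. It was above 0 for all 35 genes, with a median of 1.18 and a median of all genes of -0.12. None passed (0.153% of all 12397 genes tested did, 0.0565% higher and 0.0968% lower): 6 had an unadjusted p under 0.05, and DESeq2 called none. The lowest p-values were those of Mki67 (1.93 ± 0.71, adjusted p = 0.235), Hmmr (2.21 ± 0.89, adjusted p = 0.303) and Cenpf (2.99 ± 1.20, adjusted p = 0.31), all by edgeR. Hmmr encodes a spindle protein that also binds hyaluronan. Scaled to spike-ins, 27 of 35 were above 0, with a median of 0.48 while the median of all genes moved to -0.69. Without the low-complexity libraries the median was 1.10, and Ndc80 alone was called (1.97 ± 0.51, adjusted p = 0.0431, edgeR; 0.651% of all genes were called higher).

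Within FrE, mutants against WT, 34 of the 35 genes were above 0, with a median log2 fold change of 0.79 against -0.10 for all 9662 genes tested. None was called by edgeR (0% of all genes tested were), 5 had an unadjusted p under 0.05, and DESeq2 called none. The summed level was 8119, 6886, 6946, 4773 and 2365 CPM in mutant mice 4, 5, 8, 9 and 10, against 4595, 6311, 1496, 953 and 1415 CPM in WT mice 1, 2, 3, 6 and 7. Mutant mouse 10 lay below WT mice 1 and 2, so the groups overlapped. Scaled to spike-ins, 32 of 35 were above 0 and the median was 0.48. None was called without the low-complexity libraries either (0.162% of all genes were called higher), where 6 had an unadjusted p under 0.05. Mki67 had 404, 426, 274, 404 and 93.6 CPM in the mutants against 141, 169, 76.3, 43.1 and 111 CPM in WT, with 4 of 5 mutants above every WT library. It had the lowest p of the set, at 1.33 ± 0.48 (adjusted p = 0.851, edgeR).

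Cenpf in FrE had 113, 59.4, 105, 142 and 82.6 CPM in the mutants against 41.6, 30.4, 20.3, 0.432 and 1.22 CPM in WT. These groups did not overlap, as for 1.4% of all genes in that direction, and Cenpf was the only gene of the set for which they did not. The log2 fold change was 2.18 ± 0.91 (adjusted p = 0.918, edgeR). Kif11 had 252, 124, 191, 95.0 and 66.4 CPM in the mutants against 78.3, 107, 22.6, 29.9 and 12.0 CPM in WT, and was next at 1.42 ± 0.61 (adjusted p = 0.918, edgeR). Ccnb1 had 236, 222, 209.7, 190.0 and 93.0 CPM in the mutants, against 290.4, 312, 51.0, 10.5 and 1.57 CPM in WT, so that WT libraries were both the highest and the lowest. Top2a had 324, 417, 401, 237 and 162 CPM in the mutants against 199.5, 229, 48.5, 105 and 396 CPM in WT. Anln had 9.38, 53.7, 19.7, 23.7 and 10.5 CPM in the mutants against 23.1, 51.5, 8.68, 4.97 and 0.349 CPM in WT.

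Markers of earlier B cells also differed between the FrE groups in their medians. The 10 pro-B and pre-B markers, none at 0 throughout a group, summed to 564 to 1425 CPM in mutant FrE (median 846) and to 17.4 to 1259 CPM in WT FrE (median 80.7). They summed to 1095, 846, 564, 1425 and 631 CPM in FrE of mutant mice 4, 5, 8, 9 and 10. In FrE of WT mice 1, 2, 3, 6 and 7 they summed to 39.6, 1259, 238, 80.7 and 17.4 CPM. For the mitosis genes, WT mouse 2 was the highest WT library and WT mouse 1 the next highest. Mutant mouse 9 had the second lowest summed level of the mutants, from only 201 counts over the 35 genes. The 10 immature and mature B markers summed to 9354 to 15744 CPM in mutant FrE and to 12912 to 37246 CPM in WT FrE. The 8 plasma cell markers summed to 2040 to 2856 CPM in mutant FrE and to 1186 to 23615 CPM in WT FrE. In FrE of mutant mice 5 and 9, the 20 granulocyte and monocyte markers summed to 74564 and 22274.5 CPM. They summed to 33.2 to 1615 CPM in the other mutants and to 42.6 to 6288 CPM in WT FrE. The part of all these cells in the FrE result was not tested.

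In FrB, the pro-B fraction, the mutants had more RNA of some genes of the set and less of others. Incenp, Top2a, Mki67 and Cenpe were called higher and Ccnb2 lower, so that 4 of 35 were called higher against 5.64% of all 10562 genes tested, and 1 of 35 lower against 1.72% (7.37% in either direction). The median over the 35 genes was -0.30 and that of all genes 0.11. Incenp (ENSMUSG00000024660, chr19:9872296-9899551, minus strand) had 579, 202, 304, 375 and 458 CPM in mutant mice 4, 5, 8, 9 and 10, against 73.0, 93.2, 89.7, 58.2 and 104 CPM in WT mice 1, 2, 3, 6 and 7. Every mutant library lay above every WT library, and mutant mouse 5 was the lowest mutant. The log2 fold change was 2.54 ± 0.37 (adjusted p = 0.00396, edgeR).

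Top2a (ENSMUSG00000020914, chr11:98992943-99024189, minus strand) in FrB had 1495, 1025, 978, 1329 and 1223 CPM in the mutants against 572, 508.5, 712, 554 and 724 CPM in WT. The groups did not overlap, and the log2 fold change was 1.31 ± 0.24 (adjusted p = 0.00767, edgeR). Mki67 (ENSMUSG00000031004, chr7:135689784-135716361, minus strand) had 1139, 901, 556, 1592 and 1079 CPM in the mutants against 606, 432, 555, 424 and 489 CPM in WT. Mutant mouse 8 fell within the WT range, and the log2 fold change was 1.36 ± 0.27 (adjusted p = 0.00929, edgeR). Cenpe (ENSMUSG00000045328, chr3:135212537-135273611, plus strand) had 255, 170.4, 301, 269.9 and 332 CPM in the mutants against 99.5, 124, 117, 128 and 144 CPM in WT, with no overlap and a log2 fold change of 1.50 ± 0.37 (adjusted p = 0.0227, edgeR). Groups without overlap and with mutants higher made up 4.41% of all genes tested.

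Ccnb2 (ENSMUSG00000032218, chr9:70407692-70421547, minus strand) in FrB had 107, 677, 109, 197 and 223 CPM in mutant mice 4, 5, 8, 9 and 10, against 1088, 842, 983, 574 and 922 CPM in WT. Only mutant mouse 5 reached the WT range, and the log2 fold change was -1.57 ± 0.39 (adjusted p = 0.0252, edgeR). Ccnb1 had 341, 554, 207, 119 and 229.9 CPM in the mutants against 864, 791, 905, 327 and 799.9 CPM in WT, at -1.08 ± 0.36 (adjusted p = 0.0797, edgeR). Aurkb had 50.2, 288, 4.42, 106 and 138 CPM in the mutants against 401, 365, 388, 201 and 518 CPM in WT, at -1.54 ± 0.61 (adjusted p = 0.136, edgeR). Birc5 and Cdca8, the other subunits of the passenger complex, were at -0.11 ± 0.27 and -0.38 ± 0.38. Kif20a, a motor that acts late in mitosis and is named after its values were seen, had the lowest fold change of the set, at -3.18 ± 0.96 (adjusted p = 0.0566, edgeR), and 29.3% of its exon length is shared with Cdc23 on the opposite strand.

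The 4 FrB mutant libraries of mice 4, 8, 9 and 10 were low-complexity and no FrB WT library was. Without them the mutant arm is mouse 5 alone, which the fit assumes to vary like the WT libraries. None of the 35 genes was then called (0.126% of all genes were called higher and 1.07% lower). Incenp was at 1.21 ± 0.31 (adjusted p = 0.0864, edgeR), Mki67 at 0.78 ± 0.25, Top2a at 0.68 ± 0.24, Cenpe at 0.41 ± 0.29 and Ccnb2 at -0.44 ± 0.30, each with the sign it had with all libraries. The median of the 35 genes was then 0.01. Scaled to spike-ins, Incenp alone was called, at 2.98 ± 0.78 (adjusted p = 0.0311, edgeR), and the median of the 35 genes became 0.23 while that of all genes became 0.59. Leaving out mutant mouse 5 raised the number called to 11, and the share of all genes called in either direction to 18%. The call of Cenpe was lost when any 1 WT mouse was left out, and that of Ccnb2 when mutant mouse 9 or 10 or WT mouse 1, 2, 3 or 7 was left out, so that 3 to 4 calls remained.

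Markers of other cells differed between the same FrB groups. The 20 granulocyte and monocyte markers, none at 0 throughout a group, summed to 17811, 2619, 59264, 48765 and 23306 CPM in mutant mice 4, 5, 8, 9 and 10, against 8688, 1439, 129, 12071 and 2875 CPM in WT. The 10 immature and mature B markers summed to 710 to 2434 CPM in mutant FrB and to 7566 to 12207 CPM in WT FrB. The 8 plasma cell markers summed to 948 to 12864 CPM in the mutants and to 17778 to 52994 CPM in WT. The 7 B lineage markers summed to 3034 to 6939 CPM in the mutants and to 9333 to 10613 CPM in WT. The part of these cells in the FrB differences was not tested. Fold changes in FrB also rose weakly with exon length across genes, which are not independent: Spearman's rho was 0.27 over the 35 genes and 0.21 over 10547 genes with a length. Without the low-complexity libraries it was 0.26 over the 35 genes and 0.14 over 12669 genes. Of the called genes, Mki67, Top2a, Cenpe and Incenp have 10061, 9013, 8620 and 4329 bases of exon, and Ccnb2 has 1531. The part of length in these calls was not tested.

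**Figure D4:**
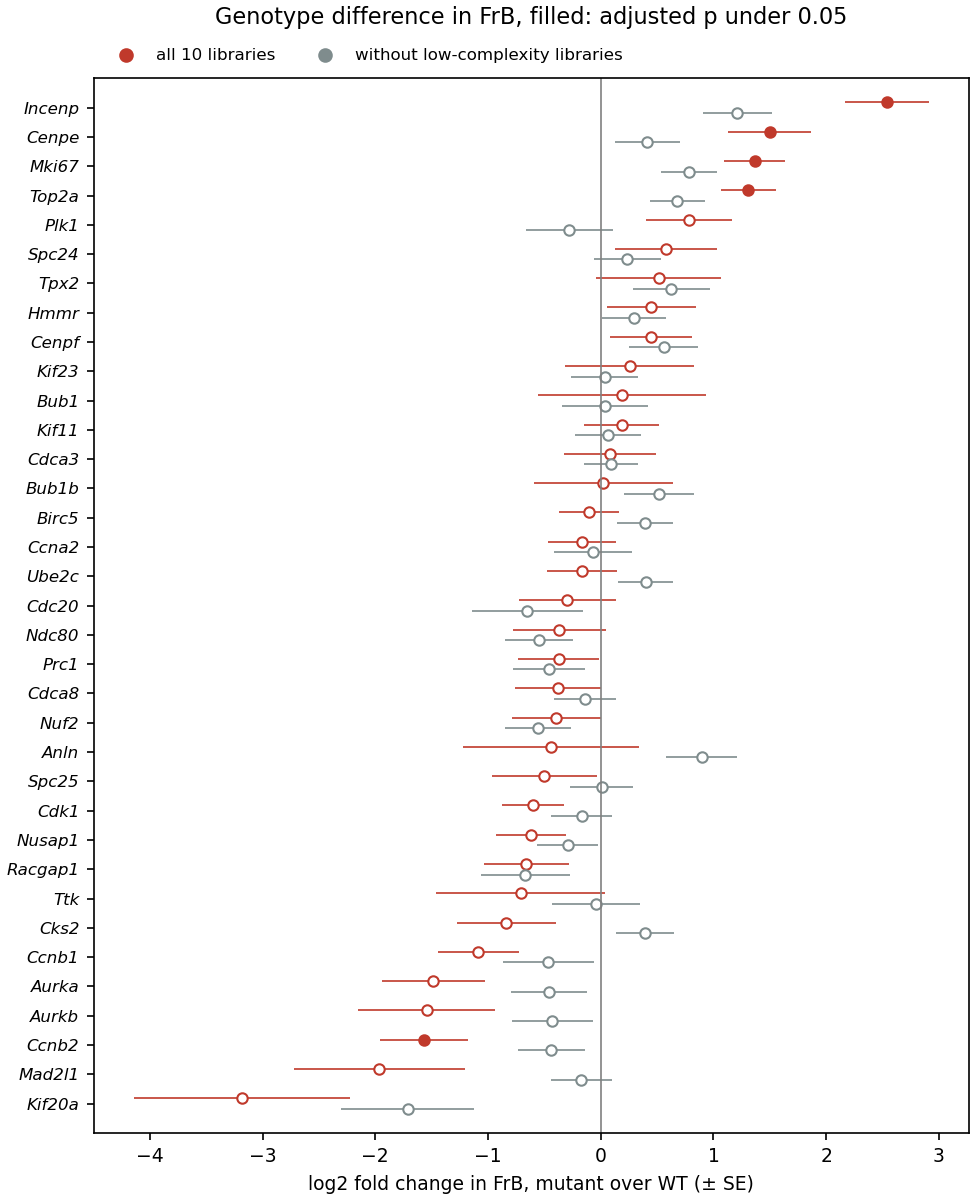
Log2 fold change in FrB, mutant over WT, for each gene (rows) with bars of 1 SE, from all 10 libraries (red, above) and without the low-complexity libraries (grey, below); filled points have an adjusted p under 0.05. The 5 filled points are Incenp, Cenpe, Mki67 and Top2a on the right and Ccnb2 on the left, and no grey point is filled.

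**Figure D5:**
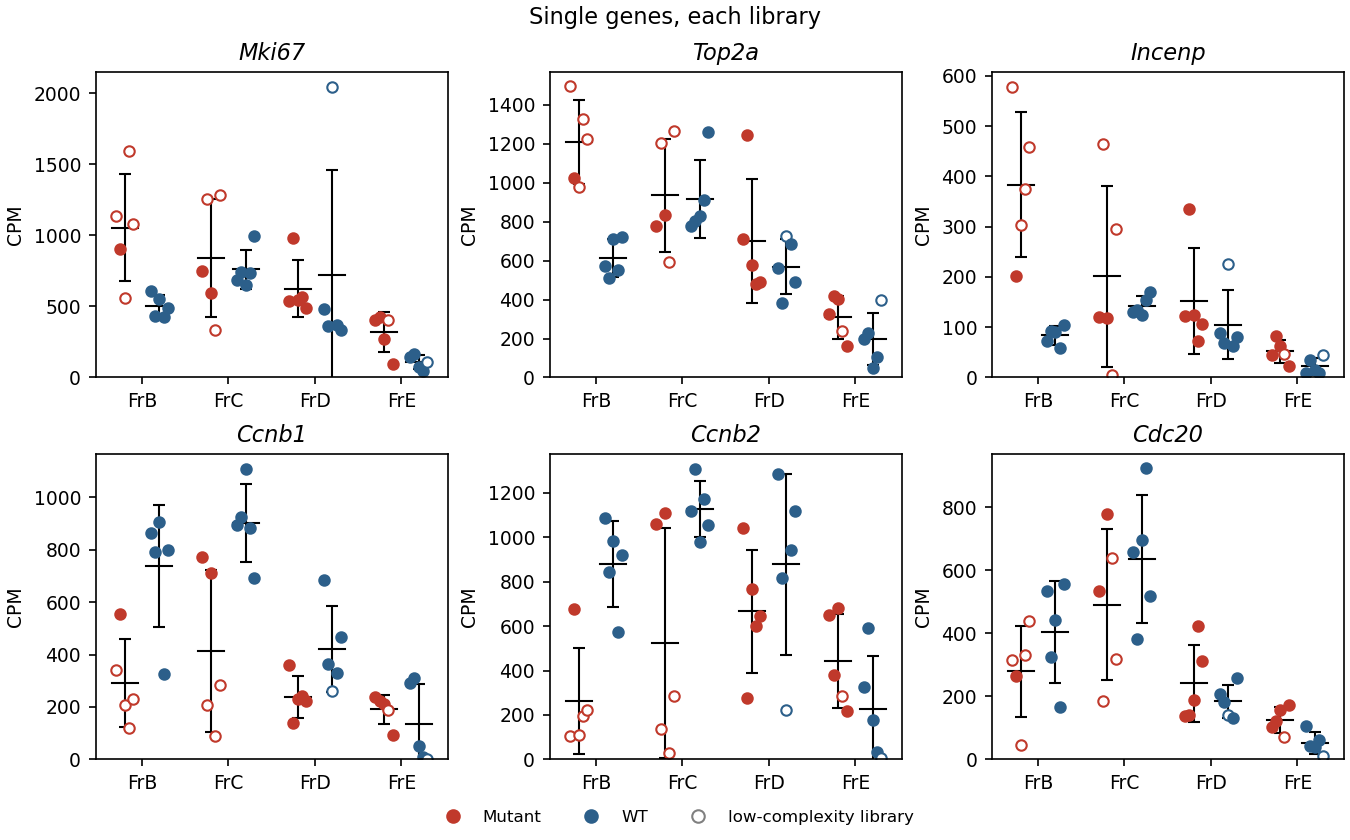
CPM of 6 genes in each library (y axis, from 0, with error bars cut at 0) by fraction (x axis), mutant left of WT; bars are the mean and SD of 5 libraries and open points are low-complexity libraries. In FrB every mutant library lies above every WT library for Top2a and Incenp, while for Ccnb2 mutant mouse 5 alone reaches the WT range.

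Other lists gave few calls in FrB. Of 90 other mitosis genes, Mybl2 and Ncapd2 were called higher and none lower, and of 40 G1/S and replication genes, E2f2, Mcm2, Lig1 and Mcm5 were called higher, where 5.64% of all genes were. Mybl2, which encodes B-Myb, was at 3.10 ± 0.79 (adjusted p = 0.0281, edgeR). When the low-complexity libraries were left out, the calls in these lists were Espl1 and Uhrf1, both higher.

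In FrC the genotypes gave no calls, and 1 library decided the largest values. None of the 35 genes was called by edgeR (0% of all 10299 genes tested were), 6 had an unadjusted p under 0.05, and DESeq2 called none. The lowest p-values were those of Cenpf (3.95 ± 1.29, adjusted p = 0.271), Ndc80 (3.96 ± 1.35, adjusted p = 0.275) and Racgap1 (3.62 ± 1.37, adjusted p = 0.302), all by edgeR. Mutant mouse 9, a low-complexity library, had 2549 CPM of Cenpf, while the other 4 mutants had 216 to 535 CPM and WT had 209 to 347 CPM. It had 1892 CPM of Ndc80, against 131 to 193 CPM in the other 4 mutants and 139 to 247 CPM in WT. For Racgap1 it had 2612 CPM, against 126 to 318 CPM in the other mutants and 282 to 456 CPM in WT. The same library had only 1.16 CPM of Cenpe and 5.80 CPM of Incenp, and it held the lowest mutant FrC value for 26 of the 35 genes. Its 12 erythroid markers summed to 80325 CPM, against 524 to 3243 CPM in the other mutant FrC libraries and 1341 to 7099 CPM in WT FrC. Its 7 T cell markers summed to 1630 CPM, against 71.0 to 294 CPM in the other mutants. Its 7 B lineage markers summed to 973 CPM, against 4097 to 9661 CPM in the other mutants and 9538 to 10617 CPM in WT FrC. The part of these cells was not tested.

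Cdk1 in FrC had 576, 209, 539, 60.9 and 258 CPM in the mutants against 607, 751, 739.7, 753 and 595 CPM in WT, with every mutant below every WT library. Ccna2, Bub1, Ttk and Mad2l1 were separated in the same way, which makes 5 of 35 against 2.32% of all genes tested. Bub1 and Ttk encode checkpoint kinases, and Mad2l1 the checkpoint protein that binds CDC20. Ccnb1 had 772, 209, 709.9, 89.4 and 282 CPM in the mutants against 895, 925, 1108, 884 and 692 CPM in WT. Mutant mice 4 and 8, the 2 FrC mutants that were not low-complexity, had the highest mutant values of Cdk1, Ccnb1 and Aurkb, the last at 540.5 and 408 CPM against 466 to 657 CPM in WT. Without the low-complexity libraries none was called (0% of all genes in either direction), and the median of the 35 genes was -0.16.

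In FrD none of the 35 genes was called between the genotypes by edgeR (0.00996% of all 10043 genes tested were), 5 had an unadjusted p under 0.05, and DESeq2 called none. The median of the set was -0.39, with 29 of 35 below 0. It changed sign with the scaling: scaled to spike-ins it was 0.21, while the median of all genes was 0.39, against -0.07 before. Granulocyte and monocyte markers summed to 12031 to 23590 CPM in mutant FrD, against 62.1 to 8550 CPM in 4 WT libraries and 75134 CPM in WT mouse 3. The 7 B lineage markers had a median of 12052 CPM in mutant FrD and 18270 CPM in WT FrD. Their part in the FrD values was not tested. Ccnb1 had the lowest p, at -1.0 ± 0.32 (adjusted p = 0.72, edgeR). It had 361, 139, 232, 240.5 and 222 CPM in the mutants against 685, 362, 262, 329 and 468 CPM in WT, where mutant mouse 4 overlapped the WT range. Next were Aurka (-0.92 ± 0.37, adjusted p = 0.898) and Cenpf (-0.83 ± 0.35, adjusted p = 0.916), both by edgeR, the first encoding the kinase of spindle poles.

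Summed over the 4 fractions of each mouse, none of the 35 genes was called between the genotypes by edgeR (0.631% of all 12036 genes tested were, 0.291% higher and 0.341% lower). Unadjusted p-values were under 0.05 for 8, and DESeq2 called 3 (4.43% of all genes). Incenp had the lowest p, at 0.91 ± 0.21 (adjusted p = 0.063, edgeR), followed by Ccnb1 at -0.83 ± 0.23 (adjusted p = 0.116) and Mad2l1 at -0.68 ± 0.20 (adjusted p = 0.129).

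From FrB to FrC no gene of the set was called in WT by edgeR (0.166% of all 11439 genes tested were), none had an unadjusted p under 0.05, and DESeq2 called none. Even so, 34 of the 35 genes were above 0, with a median of 0.33. Groups did not overlap for 8 genes, all higher in FrC, against 3.75% of all genes tested: Mki67, Top2a, Bub1, Bub1b, Incenp, Tpx2, Hmmr and Spc24. Mki67 had 685, 739, 648, 733 and 994 CPM in FrC against 606, 432, 555, 424 and 489 CPM in FrB. The 8 plasma cell markers summed to 17778 to 52994 CPM in WT FrB and to 1167.5 to 10892.5 CPM in WT FrC. The 10 immature and mature B markers summed to 7566 to 12207 CPM in WT FrB and to 2254 to 4311 CPM in WT FrC. The 12 erythroid markers had medians of 16859 CPM in WT FrB and 2254 CPM in WT FrC. The 7 B lineage markers had medians of 9729 and 9721 CPM. The part of these cells in the WT step was not tested. The summed level of the 35 genes was higher in FrC in all 5 WT mice and in 4 of 5 mutants. In the mutants none was called by edgeR (0% of all 11197 genes tested were), 9 had an unadjusted p under 0.05, and DESeq2 called 1 (3.34% of all genes). Without mutant mouse 5, edgeR called 5 higher (1.28% of all genes). The FrC library of that mouse had the lowest summed level of its group, 9005 CPM, and 30570 CPM of granulocyte and monocyte markers, against 37.3 to 881 CPM in the other mutant FrC libraries. The part of these cells was not tested.

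From FrC to FrD, Cdc20 was the single gene of the set called in WT, where 2.28% of all genes were called lower, 2.95% higher and 5.23% in either direction. Cdc20 (ENSMUSG00000006398, chr4:118432901-118437352, minus strand) had 208, 183, 139.5, 131 and 259 CPM in FrD against 658, 381, 695, 922 and 517.2 CPM in FrC, with no overlap. The log2 fold change was -1.54 ± 0.41 (adjusted p = 0.0295, edgeR), and the call was lost when mouse 1, 2, 3 or 6 was left out. The median over the 35 genes was -0.27, and 12 of them had no overlap between FrD and FrC, all lower in FrD, against 9.3% of all genes tested. Plk1 was one of these, with 166, 108, 59.6, 79.4 and 44.0 CPM in FrD against 287, 196, 336, 316 and 241 CPM in FrC, at -1.37 ± 0.59 (adjusted p = 0.184, edgeR).

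Spike-in scaling changed this step more than any other. Then 34 of the 35 genes were called lower in WT FrD than in FrC, against 57.7% of all genes tested, with a median of -2.79 against -2.39 for all genes. Counts of the 35 genes per 1000 spike-in counts averaged 4420 ± 2578 in FrD and 29188 ± 14941 in FrC (SD, n = 5). In the mutants 21 of 35 were then called lower, against 28.5% of all genes.

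In the mutants without spike-in scaling, 6 genes were called lower in FrD than in FrC, against 2.56% of all genes tested, and none higher (0.402%, with 2.97% in either direction). They were Cenpf (-5.78 ± 1.06, adjusted p = 0.0272), Plk1 (-2.46 ± 0.50, adjusted p = 0.0281), Aurka (-3.89 ± 0.89, adjusted p = 0.031), Racgap1 (-4.49 ± 1.09, adjusted p = 0.0332), Cdc20 (-2.69 ± 0.71, adjusted p = 0.039) and Ndc80 (-4.36 ± 1.16, adjusted p = 0.0441), all by edgeR. All 6 calls were lost when mutant mouse 4, 5, 9 or 10 was left out and with mouse as a block (0 called). Cenpf alone was called without mutant mouse 8. DESeq2 called 5 genes of the set lower, against 4.22% of all genes in either direction. Only Cdc20 and Plk1 were called by both DESeq2 and edgeR. Plk1 had 75.2, 150.2, 60.6, 68.7 and 38.8 CPM in FrD of the mutants against 258, 392.4, 253, 45.8 and 539 CPM in FrC, where mouse 9 alone was not lower in FrD. Without the low-complexity libraries Ccnb1 was the only gene called, at -1.58 ± 0.37 (adjusted p = 0.0461, edgeR).

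The tests of the difference between genotypes in these steps called Aurka in FrC over FrB (4.11 ± 1.02, adjusted p = 0.0497), against 0.524% of all 12397 genes tested. In FrD over FrC they called Cenpf (-5.07 ± 1.24, adjusted p = 0.0253), Ndc80 (-4.70 ± 1.19, adjusted p = 0.0274), Aurka (-3.58 ± 1.01, adjusted p = 0.0411) and Racgap1 (-3.90 ± 1.12, adjusted p = 0.0464), all by edgeR, against 2.71% of all genes called lower. FrC of mutant mouse 9 had 987 CPM of Aurka, against 156 to 374 CPM in the other mutants. Without that mouse none of these was called. None was called either without the low-complexity libraries, with mouse as a block (0 in each step), by DESeq2 (0 in each step) or when WT mouse 1, 2, 3 or 6 was left out.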

How the data were processed

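The data were 40 Smart-seq2 libraries of 100 sorted cells, prepared with Nextera XT and ERCC spike-ins, per the labels' protocols. The authors deposited whole-number read counts per gene. Per the submitters' processing notes, HISAT2 2.1.0, featureCounts 1.4.6, Subread and DESeq2 were used, with the mm10 build. The sources used here do not give the annotation release or strand setting. Molecular identifiers were not used, so counts are amplified reads.

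Counts of 21958 endogenous genes were tested as deposited with the edgeR 4.0.16 quasi-likelihood test (R 4.3.3, robust fit, TMM factors). The filterByExpr filter kept genes (min.count 10, min.total.count 15), and p-values were adjusted over all genes kept. DESeq2 1.42.0 was an alternative. Each genotype comparison used 1 fraction, steps used the 20 libraries of a genotype, and differences in step used all 40. In the sum over fractions, the 4 libraries of a mouse were added. CPM is per 1000000 endogenous counts, and exon lengths are from GENCODE for GRCm38. Deposited spike-in counts (92 ERCC rows) were kept out of tests and totals. Of the count table, 0 sample columns were left unused. The fits were also run on simulated data, whose outcome is not given here and is not used as a check of the calls.

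The 5 mice of a genotype are separate chimeras. Libraries with the same mouse number come from the same animal, so that steps are paired by animal. The median correlation of same-mouse deviations was between -0.015 and 0.065 over the 6 steps. Genotypes are not paired.

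Genes with values in every library were Mki67, Top2a, Ccnb1, Cdk1, Plk1, Aurkb, Incenp, Ndc80, Cdc20, Kif11 and Anln by role, and each gene called between genotypes. Steps and differences in step name called genes, at most 10 of lowest p in each direction. Where no gene was called between genotypes, the 3 of lowest p are given. Other genes named with values were chosen after the values were seen. The members, lists, roles and this rule were chosen with earlier results of these data known. Exons that overlap other genes, which cannot be told apart without strand, cover 22.8% of Ube2c (Tnnc2), 29.3% of Kif20a (Cdc23), 12.5% of Ccna2 (Exosc9), 11.1% of Prc1 (Rccd1) and less of the others.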

Additional observations from a re-analysis of the deposited data

Results flagged for a closer look

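In 13 of the 112 groups of 5 libraries examined, 1 library lay apart from the other 4 by more than 0.71 of the group's range. Chance gives this in about 5% of groups of independent, normally distributed values. The groups here share the same 40 libraries, so 13 of 112 cannot be set against that share. Mutant mouse 5 accounted for 5 of the 13. Its FrC library had the lowest summed level of its group, 9005 CPM, its FrD library had the highest Mki67 (978 CPM), Incenp (336 CPM) and Anln (162 CPM), and its FrB library had the highest Ccnb2 (677 CPM). WT mouse 3, whose FrD library was low-complexity, had the highest Mki67 (2043 CPM) and Incenp (226 CPM) in FrD. WT mouse 7 had the highest Mki67 (994 CPM) and Top2a (1263 CPM) in FrC. WT mouse 6 had the lowest Ccnb1 (327 CPM) and Ndc80 (129 CPM) in FrB. Ndc80 in FrC of mutant mouse 9 stood at 1892 CPM, and Cenpe in FrE of mutant mouse 8 at 140.3 CPM.

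The genotypes differed in a step, by the edgeR test of the difference itself, for Aurka between FrB and FrC (4.11). Between FrC and FrD they differed for Aurka (-3.58), Cenpf (-5.07), Ndc80 (-4.70) and Racgap1 (-3.90), all as mutant minus WT on the log2 scale. FrC of mutant mouse 9 held the highest value of its group for each of these 4 genes, and without that mouse 0 of the 35 genes were called in either step. That library was low-complexity, with erythroid markers at 80325 CPM, T cell markers at 1630 CPM and B lineage markers at 973 CPM. The part of these in the result was not tested.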

How the results depend on the processing

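Counts are of called genes among the 35, and causes were not tested. The number called among all genes changed with the setting too. In the WT step to FrE, 4.6% of all genes were called lower without low-complexity libraries, against 2.43% with all libraries. The block without low-complexity libraries and the differences in step with 1 mouse left out were added after seeing the data. Spike-in scaling gave 1 in place of 5 in FrB, 34 in place of 1 and 1 in place of 19 in the WT steps to FrD and FrE, 21 in place of 6 in the mutant step to FrD, and 0 in place of 1 and 4 in the differences in step to FrC and FrD. Without low-complexity libraries the counts were 0 in FrB, 2 and 26 in the WT steps to FrD and FrE, 1 and 1 in the mutant steps to FrD and FrE, and 0, 0 and 1 in the 3 differences in step. The joint fit gave 1 in FrB and 5 in place of 0 in FrC. Over all 12397 genes, the joint fit called 618 higher and 9 lower in FrC, where the fit of FrC alone called 0. DESeq2 gave 3 in place of 0 in the sum over fractions and 1 in place of 0 in the mutant step to FrC. It gave 0 in the differences in step to FrC and FrD, and no count filter gave 1 in the sum, 0 and 1 in those differences. RLE factors gave 3 in the difference in step to FrC, where 185 of all 12397 genes were called higher in place of 65. With 1 mouse left out, the counts ran from 3 to 11 in FrB, 0 to 1 in the sum, 0 to 1 and 6 to 20 in the WT steps to FrD and FrE, 0 to 5 and 0 to 1 in the mutant steps to FrC and FrD, and 0 to 4 and 0 to 5 in the differences in step to FrC and FrD. With mouse as a replicate block, 17 were called in the WT step to FrE, 0 in the mutant step to FrD and 0 in each difference in step. The block without low-complexity libraries gave 2 in the WT step to FrD, 1 and 3 in the mutant steps to FrD and FrE, and 0 in the differences, and the block moved no other count by over 1.5 times. Ndc80 changed sign in the mutant step to FrD, to 0.09 without low-complexity libraries and 0.57 with the block as well, and with 1 mouse left out it ran from -5.02 to 0.00 (without mutant mouse 9). In the difference in step to FrD it was 0.22 with the block and without low-complexity libraries, and Racgap1 was 0.22 without low-complexity libraries, 0.23 with the block as well, and from -4.31 to 0.51 (without mutant mouse 9) with 1 mouse left out. Of the other log2 fold changes of called genes recomputed, 210 kept their side of the threshold and 157 kept their sign and lost the call. Depth limits FrE of mutant mouse 9, with 201 counts over the 35 genes.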

Other observations

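Genes of the G1/S transition and of DNA replication had the opposite sign of median to the G2 and mitosis genes in FrE, mutant over WT. Of the 40 such genes, 3 were above 0 in mutant FrE against WT FrE, with a median log2 fold change of -0.76, while 34 of the 35 G2 and mitosis genes were above 0 with a median of 0.79. None of either set was called by edgeR. Without the low-complexity libraries the G1/S genes had a median of -1.03, with 2 of 40 above 0, and the G2 and mitosis genes a median of 0.68, with 33 of 35 above 0. Of 90 other mitosis genes, 64 were above 0 in mutant FrE with all libraries, with a median of 0.61.

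In the step from FrD to FrE the G1/S genes had a median of -1.99 in the mutants and -1.19 in WT, while the 35 genes had -0.70 in the mutants and -1.98 in WT. The difference between the genotypes in this step had a median of -1.0 for the G1/S genes, with 5 of 40 above 0, and of 0.85 for the other mitosis genes, with 66 of 90 above 0. Without the low-complexity libraries, Mcm3 and Mcm5, subunits of the replicative helicase, were called with a lower value in the mutants in that difference. Among all genes tested, 0.736% were called lower in it. With the same libraries left out, 14 of the 40 G1/S genes were called lower in the mutant step (0.451% of all genes). In the WT step 10 were (4.6% of all genes). These lists were chosen with earlier results of these data known, and no test was made between them.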
